A study of Homo sapiens with 6 samples.

Results

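Translation initiation factors are the proteins that bring the small ribosomal subunit, the initiator tRNA and an mRNA together at a start codon. They were taken here as the protein-coding rows of the count table whose symbol begins with EIF and a digit, leaving out the eIF2 kinases (EIF2AK genes). The rule found 51 genes among the 28675 rows of the table, of which 16579 were protein coding. It left out 29 EIF rows of other gene types, such as pseudogenes. The rule used no measured value. The expression filter of edgeR kept 48 of the 51. EIF2S3B, with 5 counts over the 6 libraries, EIF4EBP3, with 2 counts, and the Y-linked EIF1AY were not tested.

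All libraries were mRNA libraries of MDA-MB-231, a human triple-negative breast cancer cell line. The control group (3 libraries, replicates 1 to 3) is labelled as a no-load control, and the LARP6 group (3 libraries, replicates 1 to 3) as overexpressing LARP6, a La-related protein that binds RNA. The study asked which RNAs LARP6 binds and regulates in triple-negative breast cancer. The labels do not name the vector, whether the cells are a clone or how long LARP6 was raised. Since nothing in them says that replicate libraries are separate cultures, the p-values here measure only how much these libraries vary, and that variation may be technical.

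Libraries held 29409101 to 33387050 counts, with a between-library coefficient of variation of 3.23% from the common dispersion. LARP6 rose from 42.7 ± 1.85 to 2108 ± 104 CPM (SD, n = 3 each), where CPM are counts scaled to a common library size with TMM factors, and every library matched its label. The line's mesenchymal markers were present, with VIM at 3151 CPM and CD44 at 761 CPM on average in the controls. Its hormone receptors were near 0 there: ESR1 had 0 counts and PGR averaged 0.149 CPM. CDH1 averaged 7.92 CPM and the leukocyte gene PTPRC 0.354 CPM. ERBB2, the other receptor expected absent or low in the line, was not near 0 and averaged 57.2 CPM. The epithelial gene EPCAM averaged 15.3 CPM.

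Initiation begins when eIF2 loads the initiator tRNA, in its GTP-bound form, onto the small ribosomal subunit together with eIF1, eIF1A, eIF5 and the large scaffold eIF3. The eIF4F complex, made of the cap-binding protein eIF4E, the scaffold eIF4G and the helicase eIF4A, brings the subunit to the capped end of the mRNA, and eIF4E-binding proteins compete with eIF4G for eIF4E. After GTP is spent, eIF2B recharges eIF2, which is the step that stress kinases block, and eIF5B joins the large subunit. Several mRNAs of the translation machinery carry a 5′ terminal oligopyrimidine tract, a run of C and T letters that begins with C at the first transcribed base and through which their translation follows growth signals.

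The start sites of the initiation factors are shown first, because such a tract, best known from ribosomal protein and elongation factor mRNAs, can be looked for in the initiation factors too. RefSeq start sites on GRCh38.p14 were matched by symbol for 40 of the 48 tested genes. EIF2S2, EIF3A, EIF3CL, EIF3E, EIF3G, EIF3H, EIF3L and EIF4EBP1 had no match. The window printed is 20 bases before and 20 bases from the listed start, on the gene's own strand and 5′ to 3′. Capitals mark the unbroken run of C and T that begins with C at the start site. Of the genes in these windows EIF3F, EIF3D, EIF3K and EIF3M encode eIF3 subunits, EIF4A2 an eIF4A helicase, EIF4B its cofactor and EIF2S3 the gamma subunit of eIF2.
EIF3F (chr11:7987317-7987356, plus strand): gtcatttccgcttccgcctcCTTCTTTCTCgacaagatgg
EIF3D (chr22:36529147-36529186, minus strand): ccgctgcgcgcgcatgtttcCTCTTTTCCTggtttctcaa
EIF3K (chr19:38619168-38619207, plus strand): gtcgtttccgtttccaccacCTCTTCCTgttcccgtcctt
EIF3M (chr11:32583811-32583850, plus strand): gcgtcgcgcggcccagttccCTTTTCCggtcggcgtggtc
EIF4A2 (chr3:186783557-186783596, plus strand): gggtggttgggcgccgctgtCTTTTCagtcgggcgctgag
EIF4B (chr12:53006436-53006475, plus strand): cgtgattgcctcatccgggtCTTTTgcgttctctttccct
EIF2S3 (chrX:24054936-24054975, plus strand): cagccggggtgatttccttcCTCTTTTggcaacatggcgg
EIF4G2 (chr11:10807977-10808016, minus strand): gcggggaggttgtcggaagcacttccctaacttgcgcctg

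The run was 10 bases long in EIF3F and EIF3D, 8 in EIF3K, 7 in EIF3M and EIF2S3, 6 in EIF4A2 and 5 in EIF4B. EIF4G2, an eIF4G-like scaffold that does not bind eIF4E, is printed as a gene without a run at either of its listed starts. With at least 5 bases required at any listed start, 9 of the 40 genes (22.5%) had a run, the other two being EIF2A with 8 bases and EIF2D with 7. The same letters stood at the start of 7.31% of all tested protein-coding genes with an entry and of 5.14% of all RefSeq genes in the table. A run is a description of these windows and not a measured tract.

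In the LARP6 cells the initiation factors moved little. EIF4A2, EIF4G2 and EIF3A were higher and EIF3F, EIF3G, EIF4EBP1 and EIF5AL1 lower at an edgeR Benjamini-Hochberg adjusted p below 0.05 over all 16226 tested genes, and the other 41 tested factors were not called. These 7 of 48 are 14.6%, and 6.03% of all tested genes were called. Among the 13239 tested protein-coding genes, the type of all the factors, 6.86% were called. Neither background was matched for expression level. By direction, 3 of 48 rose against 2.43% of all genes, and 4 of 48 fell against 3.6%. Fitted log2 fold changes ran from -0.26 for EIF3CL to 0.12 for EIF4G3. The median over the 48 factors was -0.019, beside 0.0038 over all tested genes, with 32 factors below 0 and 16 above. Over all tested genes 7924 were below 0 and 8302 above. By library, the median log2 deviation of the factors from their control means was 0.0034, 0.0068 and -0.0012 in the controls and 0.0032, -0.020 and -0.029 in LARP6 libraries 1, 2 and 3. LARP6 library 1 thus lay among the controls. In 5 factors every LARP6 library lay above every control library, and in 10 every LARP6 library lay below. Together that is 31.25% of the factors, beside 22.3% of all tested genes and 23.9% of the tested protein-coding genes.

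**Figure D1:**
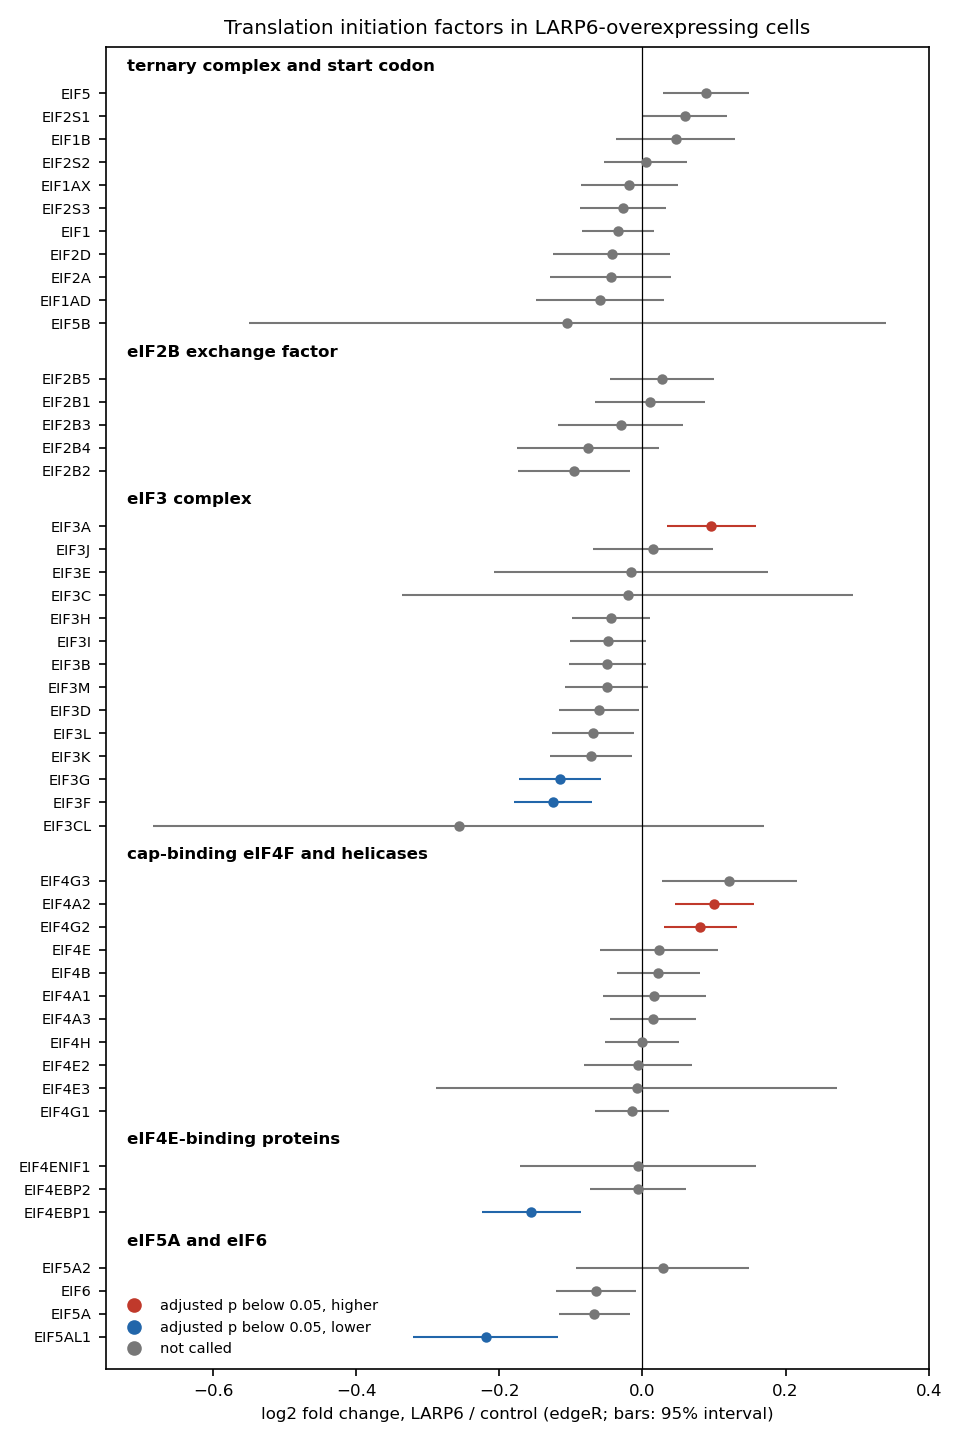
Log2 fold change (LARP6 over control, edgeR) of the 48 tested initiation factors, grouped by role. Points are fitted values and bars 95% intervals; red marks the 3 factors higher and blue the 4 lower at an adjusted p below 0.05, and most eIF3 subunits lie left of the line at 0 while EIF5B, EIF3C, EIF3CL and EIF4E3 have the widest bars.

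Per-length levels differed widely between the factors. The authors' FPKM divide counts by gene length and library size. By these the highest factor rows were EIF5A at 323.7 ± 5.17 FPKM (SD, n = 3, control libraries), EIF1 at 207.7 ± 5.45 and EIF6 at 133.8 ± 0.514. The readthrough gene SENP3-EIF4A1, which is not a member but shares most of the EIF4A1 sequence, had 345.1 ± 6.22 FPKM in the controls. The EIF4A1 row had 15.6, so the rank of that helicase cannot be judged. The lowest tested rows were the eIF4E relative EIF4E3 at 0.33 ± 0.026 FPKM, EIF3CL at 0.537 ± 0.085 and EIF3C at 1.34 ± 0.179. EIF3C and EIF3CL share most of their sequence with each other, so their ranks cannot be judged either. The length behind an FPKM was recovered from the counts and compared with GENCODE v29 exon length. For 86.3% of 11799 genes the ratio lay within 10% of the usual value. It was off by over 1.5 times in 5 tested factors, at 6.29 times the usual value for EIF3E, 5.66 times for EIF3I, 1.82 times for EIF4H, 1.60 times for EIF3F and 0.35 times for EIF4E, whose FPKM are not ranked here. Smaller departures beyond 10% were found in EIF2A (1.43), EIF2S3 (1.18), EIF4A3 (1.16), EIF4G3 (1.16) and EIF4EBP1 (0.82). Per kilobase of v29 exon length the rows of EIF5A, EIF1 and EIF3I were highest among the factors, at 345, 235 and 215 CPM per kilobase. The v29 exon length of EIF3I is 1725 bases and the length behind its FPKM 11042, so its rank cannot be judged by either measure.

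**Figure D2:**
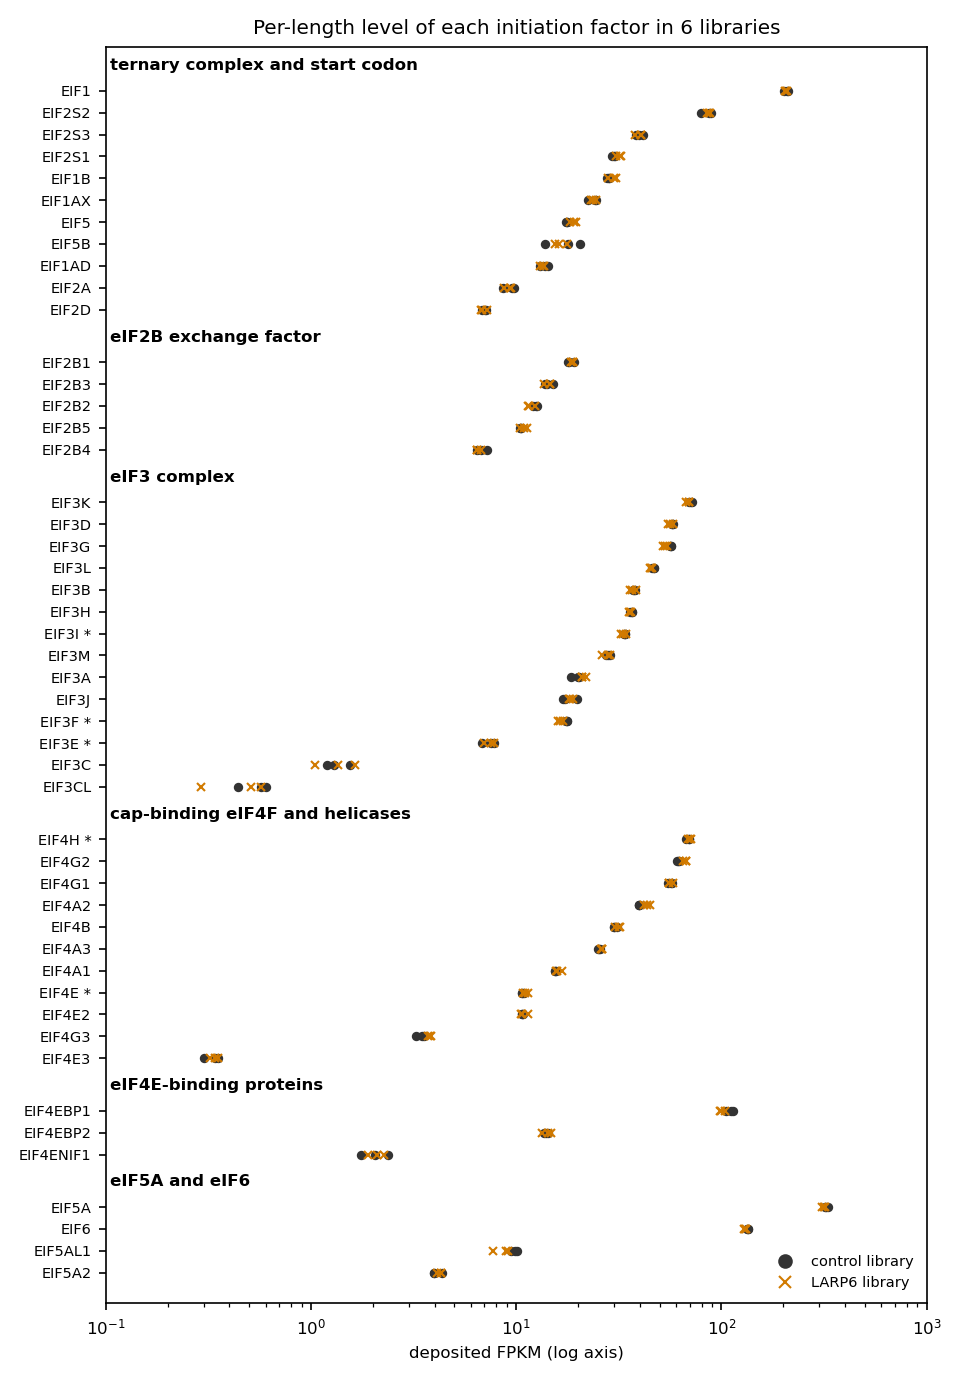
Deposited FPKM of the 48 tested initiation factors on a log axis, with 1 black point per control library and 1 orange cross per LARP6 library. EIF5A, EIF1 and EIF6 are the highest rows and EIF4E3 and EIF3CL the lowest, and the crosses fall on or beside the points in nearly every factor. Asterisks mark the 5 factors whose FPKM rest on a length over 1.5 times away from the usual ratio. The SENP3-EIF4A1 readthrough row, which shares most of the EIF4A1 sequence, is not drawn.

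The ternary-complex and start-codon factors showed no called change. None of the 11 tested was called by edgeR, DESeq2 or limma-voom, and 2 were higher at an unadjusted p below 0.05. Their median log2 fold change was -0.027. EIF5, the factor that makes eIF2 spend its GTP at the start codon, had 167.4, 167.5 and 166.6 CPM in control cells against 179.3, 182.9 and 171.2 CPM with LARP6. All LARP6 libraries were above all controls, at a log2 fold change of 0.09 ± 0.03 (SE) and an adjusted p of 0.0620, which missed the threshold. The 3 eIF2 subunit genes spread around 0: EIF2S1, the alpha subunit that stress kinases phosphorylate, was at 0.06 (adjusted p = 0.261), EIF2S2 at 0.0045 (0.959) and EIF2S3 at -0.03 (0.692).

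EIF1, which keeps the scanning ribosome from starting at poor start codons, was at -0.03 (log2, adjusted p = 0.502) and its paralog EIF1B at 0.05 (0.604). EIF1AX, the X-linked gene of eIF1A, was at -0.02 (0.832). EIF5B, the GTPase that joins the large subunit, varied most among the well-expressed factors. Its controls held 182.2, 161.7 and 124.5 CPM, and the LARP6 libraries 143.1, 155.9 and 136.1 CPM. The groups overlapped and the interval of the log2 fold change ran from -0.55 to 0.34. Control library 3 was the lowest of the 6, and without it EIF5B was called lower at -0.24 (edgeR adjusted p = 9.12e-10), while without control library 1 its log2 fold change was 0.02 (adjusted p = 0.964). The call thus turned on which control library was left out and is not read here as a change.

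The 5 subunits of eIF2B, the factor that recharges eIF2, were all without a call by edgeR, DESeq2 and limma-voom, and 1 was lower at an unadjusted p below 0.05. Log2 fold changes ran from -0.10 in EIF2B2, the beta subunit gene, to 0.03 in EIF2B5, which encodes the catalytic epsilon subunit. EIF2B2 had control values of 77.96, 77.68 and 74.91 CPM and LARP6 values of 75.51, 70.04 and 70.21 CPM. Its groups overlapped at a single library, with an adjusted p of 0.142.

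The eIF3 complex, the scaffold that holds the small subunit ready for mRNA, had the most members below 0. Of its 14 rows EIF3F and EIF3G fell, EIF3A rose and 11 were not called. A total of 12 had a log2 fold change below 0, and the median was -0.050. Without EIF3C and EIF3CL, which cannot be judged, 10 of 12 were below 0 at the same median. Of all 16226 tested genes 7924 were below 0. Every LARP6 library lay below every control in 6 of the 14, EIF3F, EIF3G, EIF3D, EIF3H, EIF3K and EIF3L, and above in EIF3A alone, beside 11.7% and 10.6% of all tested genes. EIF3D, EIF3H, EIF3K and EIF3L themselves were not called, at -0.06, -0.04, -0.07 and -0.07 with adjusted p-values of 0.212, 0.409, 0.127 and 0.146.

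EIF3F (ENSG00000175390.15, chromosome 11 from 7970251 to 8001862, plus strand, GRCh38) encodes a subunit with an MPN domain. Its controls had 301.1, 304.7 and 306.3 CPM, against 272.3, 277 and 287.2 CPM in LARP6 cells. The 3 LARP6 libraries were all lower, with library 3 nearest to the controls. The log2 fold change was -0.12 ± 0.03 (SE), a change of -8.28%, at an adjusted p of 0.00108. EIF3G (ENSG00000130811.12, chromosome 19 from 10115017 to 10119918, minus strand) encodes an RNA-binding subunit. Its CPM were 225.3, 223.7 and 227.5 in the controls against 204.5, 211.7 and 208.5 in the LARP6 libraries, again with no overlap, a log2 fold change of -0.11 ± 0.03 (SE, adjusted p = 0.00516). Without LARP6 library 1 it was at -0.10 and the call was lost (adjusted p = 0.0688).

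EIF3A (ENSG00000107581.13, chromosome 10 from 119033670 to 119080823, minus strand), the largest subunit of the complex, moved the other way. Its controls held 163.5, 162.3 and 151.3 CPM and its LARP6 libraries 175.4, 167.7 and 166.9 CPM. The groups did not overlap, though control library 3 stood below the other two controls. The log2 fold change was 0.10 ± 0.03 (SE), near the threshold at an adjusted p of 0.0442. The call was lost without control library 2 (adjusted p = 0.0642) or 3 (0.325, log2 fold change 0.06) and without LARP6 library 1 (0.313) or 2 (0.0888). It was also lost with all 6 libraries under DESeq2 (0.110), limma-voom (0.0519), upper-quartile factors (0.0526) and no low-count filter (0.0800). Of the remaining subunits, EIF3B at -0.05 (adjusted p = 0.319) and EIF3I at -0.05 (0.319) were not called, and neither was EIF3M at -0.05 (0.358) or EIF3E at -0.02 (0.941).

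EIF3C and its near-identical copy EIF3CL cannot be judged from this table. They share 93.4% and 95.3% of the 150-base stretches of their transcripts, the read length used here. Only 1957 and 317 counts were assigned to them over 6 libraries, while EIF3B, a core subunit of the same complex, had 70506. Their log2 fold changes, -0.02 and -0.26, carry intervals from -0.34 to 0.29 and from -0.68 to 0.17.

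**Figure D3:**
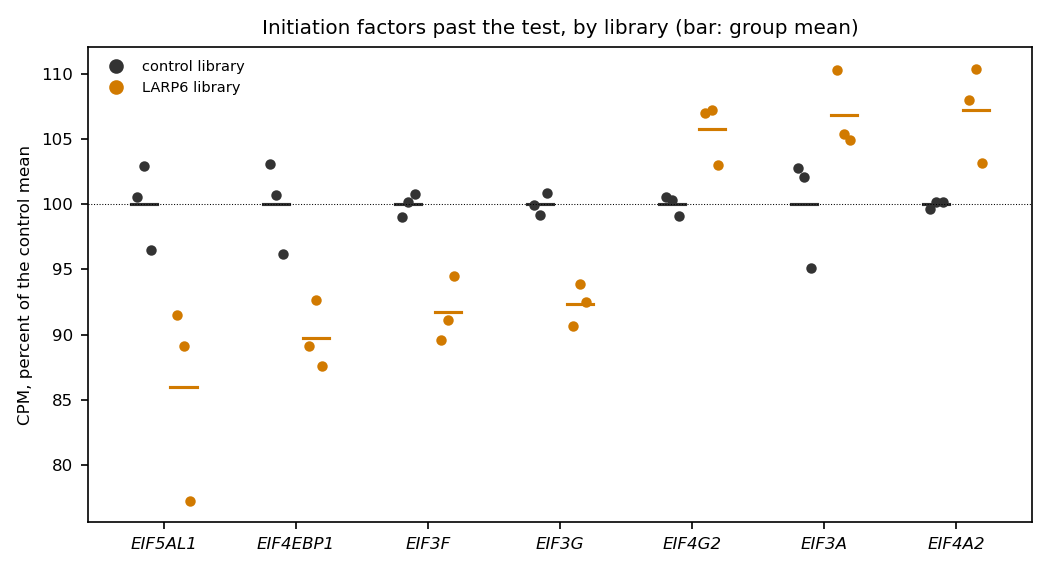
CPM of the 7 called initiation factors in each library, as percent of that gene's control mean; black points are the 3 control libraries, orange points the 3 LARP6 libraries and bars group means. The vertical axis does not start at 0. All orange points lie below the black points in EIF5AL1, EIF4EBP1, EIF3F and EIF3G and above them in EIF4G2, EIF3A and EIF4A2.

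Among the cap-binding factors and helicases, EIF4A2 and EIF4G2 rose and 9 of 11 were not called. The median log2 fold change was 0.017, with 7 above 0. EIF4A2 (ENSG00000156976.17, chromosome 3 from 186783205 to 186789900, plus strand), which encodes an eIF4A helicase, had 277.2, 278.7 and 278.6 CPM in the controls. The LARP6 libraries held 300.5, 307.2 and 286.9 CPM, all above the controls, which lay close together. The log2 fold change was 0.10 ± 0.03 (SE), a change of 7.20%, at an adjusted p of 0.0143. The call was lost without control library 2 (adjusted p = 0.0619) and without LARP6 library 1 (0.0878) or 2 (0.196).

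EIF4G2 (ENSG00000110321.19, chromosome 11 from 10797050 to 10809110, minus strand) had 600.6, 599.6 and 592 CPM in control cells and rose to 639.5, 640.5 and 615.6 CPM. Again library 3 was the LARP6 library nearest to the controls, and the groups did not overlap. Its log2 fold change was 0.08 ± 0.03 (SE, adjusted p = 0.0382), and the call was lost without any 1 of the libraries except LARP6 library 3 (adjusted p from 0.0601 without control library 1 to 0.218 without LARP6 library 2). EIF4G3, a paralog of the main scaffold gene, was also above in every LARP6 library, at 44.74, 44.23 and 41.51 against 46.37, 47.43 and 48.04 CPM, but missed the threshold at 0.12 ± 0.05 (SE, adjusted p = 0.114). The main scaffold EIF4G1 was at -0.01 (adjusted p = 0.820), the cap-binding gene EIF4E at 0.02 (0.822) and its repressor-type relative EIF4E2 at -0.01 (0.954). EIF4E3 was at -0.01 with an interval from -0.29 to 0.27. The eIF4A cofactors EIF4B and EIF4H were at 0.02 (0.746) and -0.00069 (0.992), and EIF4A3, the helicase of the exon junction complex, at 0.02 (0.847).

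The EIF4A1 row holds only a small part of the reads of the main eIF4A helicase. The gene lies inside the annotated readthrough gene SENP3-EIF4A1, and every 150-base stretch of its transcript occurs in another gene's transcripts as well. Over the 6 libraries EIF4A1 received 17183 counts and SENP3-EIF4A1 252074. The EIF4A1 row held 6.12% to 6.79% of the sum of these 2 rows in the 6 libraries. Another row on the same strand, the lncRNA gene RP11-186B7.4, shares 80.3% of the 150-base stretches of EIF4A1 and held 27895 counts, which are not in that sum. The EIF4A1 row had 91.65, 92.32 and 93.41 CPM in control cells and 92.73, 97.26 and 90.64 CPM with LARP6, with overlap, at 0.02 (log2, adjusted p = 0.861). The readthrough row went from 1388 ± 29.4 to 1340 ± 15.4 CPM (SD, n = 3 each), at -0.05 and an adjusted p of 0.232. SENP3, the upstream gene of the pair, was called lower at -0.12 (adjusted p = 0.0147).

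**Figure D4:**
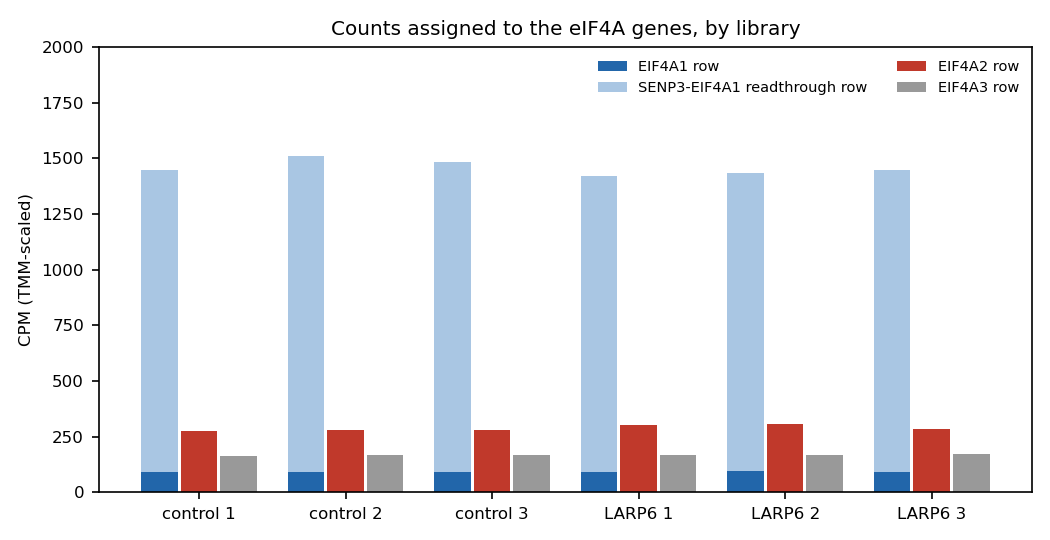
CPM assigned to the eIF4A genes in each of the 6 libraries, from 0, with the EIF4A1 row (dark blue) stacked under the SENP3-EIF4A1 readthrough row (light blue) beside EIF4A2 (red) and EIF4A3 (grey). The stack stands between 1420 and 1509 CPM in all libraries and the EIF4A1 row is a thin layer at its foot.

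The balance of related factors was compared within each library as a log2 ratio of counts for 6 pairs, with exact two-sided permutation tests that cannot go below p = 0.1 for 3 against 3. EIF4A1 over EIF4A2 went from -1.59 ± 0.011 to -1.67 ± 0.021 (SD, n = 3 each), a difference of -0.08 (exact p = 0.1, adjusted over the pairs 0.2). With the readthrough row added to EIF4A1, a comparison added after the values were seen, the difference was -0.15 (exact p = 0.1). EIF4G1 over EIF4G3 differed by -0.14 and EIF4EBP1 over EIF4EBP2 by -0.15 (exact p = 0.1, adjusted 0.2, for both). In these pairs the groups did not overlap, and the design cannot reach the threshold. The ratios were not corrected for GC content, which differs within these pairs. By the longest transcript it was 65.5% in EIF4EBP1 and 43.7% in EIF4EBP2, and 57.4% in EIF4G1 and 46.0% in EIF4G3. It was 49.6% in EIF4A1 and 38.7% in EIF4A2. EIF5A over EIF5A2 differed by -0.10 (exact p = 0.2, adjusted 0.3), EIF1 over EIF1B by -0.08 and EIF4E over EIF4E2 by 0.03 (exact p = 0.3, adjusted 0.3, for both), with groups that overlapped.

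Of the eIF4E-binding proteins, EIF4EBP1 fell and 2 of the 3 tested were not called. EIF4EBP1 (ENSG00000187840.5), which encodes the repressor 4E-BP1 that mTORC1 inactivates by phosphorylation, had control levels of 114.2, 111.6 and 106.6 CPM and LARP6 levels of 98.73, 102.6 and 97 CPM. Its groups did not overlap. The log2 fold change was -0.16 ± 0.04 (SE), a change of -10.2%, at an adjusted p of 0.00132. Its paralog EIF4EBP2 and the eIF4E transporter EIF4ENIF1 were both at -0.01 (adjusted p = 0.947 and 0.979). EIF4EBP3 shares 66.6% of its 150-base stretches with the readthrough gene ANKHD1-EIF4EBP3, which held 1699 counts against its own 2.

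In the last group, EIF5AL1 fell and EIF5A, EIF5A2 and EIF6 were not called by edgeR, while limma-voom also called EIF5A lower. EIF5AL1 (ENSG00000253626.4, chromosome 10 from 79512601 to 79516440, plus strand) is a copy of EIF5A, the gene of the hypusine-carrying factor that helps ribosomes through difficult stretches. Its CPM were 43.92, 44.97 and 42.15 in control cells and 39.97, 38.92 and 33.73 in LARP6 cells. The groups did not overlap and LARP6 library 3 was the lowest. The log2 fold change was -0.22 ± 0.05 (SE), a change of -14.1%, at an adjusted p of 0.00222. Without LARP6 library 3 it was at -0.15 and the call was lost (adjusted p = 0.0935).

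EIF5A itself had 976.5, 988.7 and 1016 CPM in control cells and 934.8, 949.2 and 961.2 CPM with LARP6, all lower, at -0.07 (edgeR adjusted p = 0.0920, limma-voom adjusted p = 0.0383). EIF5A shares 3.16% of its 150-base stretches with EIF5AL1 and EIF5AL1 1.17% of its own with EIF5A. At 50 bases these shares are 30.1% and 11.6%. EIF6, which keeps the large ribosomal subunit apart from the small one, was likewise lower in every LARP6 library, at -0.06 (adjusted p = 0.171). It shares exon sequence on the same strand with AL121753.1, a row with 23936 counts. EIF5A2 was at 0.03 (adjusted p = 0.857).

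Changes across all genes were correlated with transcript composition, and by the longest transcript 5 of the 7 called factors lay along that trend. Across 16055 tested genes the Spearman correlation of log2 fold change with the GC content of the longest transcript was -0.326, and across the 48 factors it was -0.407. With transcript length it was 0.213 and 0.341. By coding sequence, over 13212 genes and the 48 factors, the correlations were -0.348 and -0.468 with GC content and 0.205 and 0.115 with length. The points share the same 6 libraries, so these are descriptions across genes. The called-higher EIF4A2, EIF4G2 and EIF3A had GC contents of 38.7%, 40.5% and 43.2%, and the called-lower EIF3G and EIF4EBP1 60.3% and 65.5%. EIF3F and EIF5AL1 fell at 40.6% and 45.6%. The placing depends on the transcript chosen, since EIF4G2 has 49.0% by its principal transcript and EIF3F 56.5% by its coding sequence.

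**Figure D5:**
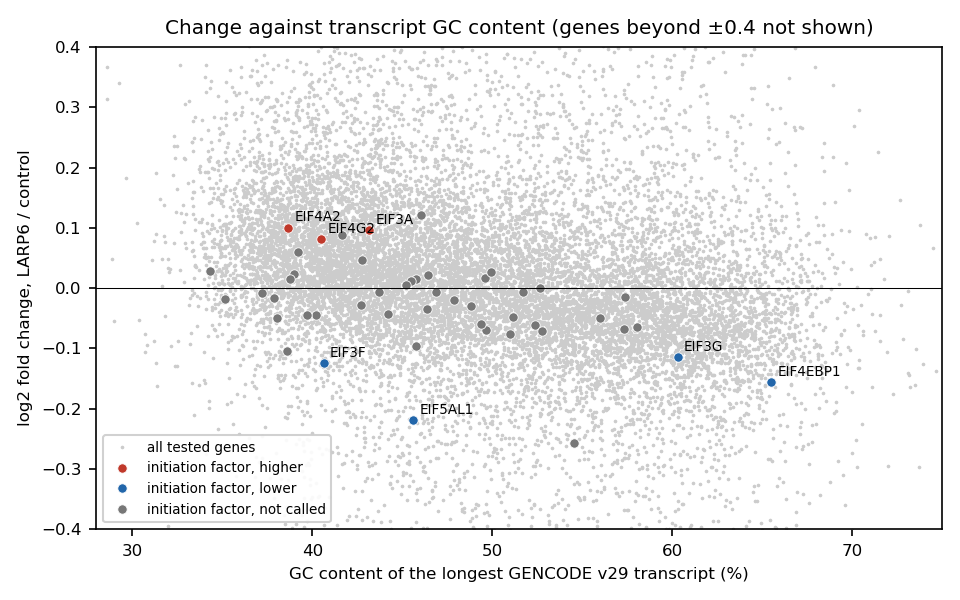
Log2 fold change (LARP6 over control) against GC content of the longest GENCODE v29 transcript, for all tested genes (light grey, those within 0.4 of 0) and the initiation factors (red higher, blue lower, dark grey not called). The grey cloud slopes down from left to right; EIF4A2, EIF4G2 and EIF3A lie at its upper left, EIF3G and EIF4EBP1 at its lower right, and EIF3F and EIF5AL1 below it.

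The fit was repeated with offsets that take out each library's smooth trend on GC content and length. With the longest transcript, EIF3F was lower at -0.20 (edgeR adjusted p = 2.68e-07) and EIF5AL1 at -0.24 (0.000568). EIF3G at -0.04 (0.460), EIF4EBP1 at -0.07 (0.311), EIF4A2 at 0.02 (0.701), EIF4G2 at 0.0097 (0.887) and EIF3A at 0.04 (0.549) were no longer called. EIF3M at -0.13 (0.000361), EIF3H at -0.10 (0.00560), EIF1AX at -0.10 (0.0368) and EIF2B2 at -0.12 (0.0427) became called. That makes 0 factors higher, also at an unadjusted p below 0.05, and 6 lower, beside 1.31% and 2.17% of all tested genes.

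The longest transcript can misstate composition. That of EIF3F is 7540 bases long at 40.6% GC, while its coding sequence has 56.5%. With offsets taken instead from the coding sequence, a choice made after the data were seen, 4 factors were lower and 0 higher, beside 2.22% and 1.78% of all tested genes. At an unadjusted p below 0.05, 15 were lower and 1 was higher. The share of all tested genes at that unadjusted p was not counted, so this split has no background. The 4 were EIF3F at -0.09 (adjusted p = 0.0119), EIF5AL1 at -0.20 (0.0136), EIF3M at -0.10 (0.00856) and EIF3L at -0.09 (0.0190). With offsets from the APPRIS principal transcript, added in the same way, 6 factors were lower and 1, EIF4G2 at 0.09 (0.0060), was higher, beside 1.95% and 1.37% of all tested genes. EIF3F, EIF5AL1 and EIF3M were thus called lower under all 3 sets of offsets, and EIF3F and EIF5AL1 without offsets too. What GC content and length contributed to the other calls, or to the paralog ratios, was not tested beyond these fits. With the longest-transcript offsets EIF4EBP1 was at -0.068 and EIF4EBP2 at -0.062, and EIF4A1 at 0.040 and EIF4A2 at 0.025. EIF4G1 was at 0.0096 and EIF4G3 at 0.084 there. With the coding-sequence offsets EIF4EBP1 was at -0.080 and EIF4EBP2 at 0.047, and EIF4A1 at 0.012 and EIF4A2 at 0.057. EIF4G1 was then at -0.027 and EIF4G3 at 0.059.

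Among the factors, the 9 with a pyrimidine run at the start had a median log2 fold change of -0.044 and the 31 without -0.0065. With the longest-transcript offsets these were -0.060 and -0.013. In each set 1 factor was higher and 1 lower: EIF4A2 and EIF3F among those with a run, EIF4G2 and EIF5AL1 among those without. The called EIF3A, EIF3G and EIF4EBP1 had no matched start site and are in neither set. All tested protein-coding genes with a run had a median of -0.011, with 14 higher and 56 lower among 762, and those without 0.0068, with 265 higher and 368 lower among 9659.

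Other translation genes, among them regulators of the initiation factors and elongation and termination factors, were taken from 8 lists of 53 genes, of which 52 were tested. Of these 2 rose, 6 fell and 44 were not called. The 8 called are 15.4% of the tested list genes, beside 6.03% of all tested genes (2.43% higher and 3.6% lower) and 6.86% of the tested protein-coding genes. The smallest p was that of PPP1R15A, the stress-induced subunit that directs a phosphatase to eIF2. It went from 130.2, 125.9 and 127.1 CPM in control cells to 134.6, 144.1 and 145.2 CPM with LARP6. All LARP6 libraries were higher, at a log2 fold change of 0.15 ± 0.03 (SE, adjusted p = 0.00117), and at 0.21 (2.73e-07) with the longest-transcript offsets. PPP1CA, a catalytic subunit of that phosphatase, fell by 0.09 (0.0324), and PPP1R15B, the constitutive counterpart of PPP1R15A, was at 0.14 (0.0614). None of the 4 eIF2 kinases was called by edgeR, DESeq2 or limma-voom, with 1 higher and 1 lower at an unadjusted p below 0.05. The nearest was EIF2AK4, the amino-acid sensor GCN2, at 0.12 (adjusted p = 0.0695). EIF2AK1, the heme-regulated kinase, was at -0.07 (0.212) and was called lower by edgeR with coding-sequence offsets, at -0.11 (0.0141), and with principal-transcript offsets, at -0.10 (0.0397).

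In the list of mTORC1 and S6 kinase genes, 2 of 11 fell and 0 rose. By edgeR 1 was higher at an unadjusted p below 0.05, and 0 were called higher by DESeq2 and limma-voom. MLST8, an mTOR complex subunit, was at -0.17 (adjusted p = 0.00209) and AKT1S1, which encodes the mTORC1 inhibitor PRAS40, at -0.13 (0.00481). Among 13 other initiation and scanning factors DENR, a start-codon and recycling factor, rose by 0.10 (0.0484), and MKNK2, a kinase of eIF4E, fell by 0.11 (0.0450). Neither DENR nor MKNK2 was called by DESeq2 or limma-voom. Of 9 elongation factors EEF2 was at -0.08 (0.0247) and EEF1G at -0.08 (0.0400), and 0 were higher by edgeR, DESeq2 or limma-voom, also at an unadjusted p below 0.05. With the longest-transcript offsets MLST8 (0.149), AKT1S1 (0.136), DENR (0.486), MKNK2 (0.412), EEF2 (0.471), EEF1G (0.288) and PPP1CA (0.834) all missed the threshold, and PPP1CB, another catalytic subunit of the phosphatase, became called lower at -0.11 (0.0120). With coding-sequence offsets EEF2 (0.0438) and EEF1G (0.0402) kept their calls. With principal-transcript offsets PPP1R15A, at 0.20 (8.62e-07), was the only one of the 8 that kept its call, and PPP1CB was lower at -0.11 (0.00575).

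The remaining lists had no call by edgeR without offsets, DESeq2 or limma-voom. They were 5 tested genes of poly(A)-binding proteins and partners, where PABPC1 was nearest at -0.06 (adjusted p = 0.176) and the only gene lower at an unadjusted p below 0.05, 3 termination factors and 2 enzymes of eIF5A hypusination, with 0 at an unadjusted p below 0.05. With coding-sequence offsets edgeR called PABPC1 lower at -0.10 (adjusted p = 0.00073). DHPS, the first of these enzymes, was measured at 1.01 CPM in the controls, so its log2 fold change of 0.16 has an interval from -0.38 to 0.69.

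Other annotation overlaps touch named factors. Exons of EIF4G2 overlap those of CTR9 on the opposite strand over 134 bases, EIF3G those of P2RY11 over 113, EIF3A those of NANOS1 over 63, and EIF4A2 those of RFC4 over 21. EIF3L shares 38.6% of its 150-base stretches with AL022311.1, which held 195 counts. The strand setting of the authors' counting is not given in the sources used here, so reads of overlapping genes may be mixed.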

How the data were processed

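Total RNA from 6 MDA-MB-231 libraries was sequenced with a stranded mRNA kit as paired 150-base reads, per the labels' protocols. The authors deposited whole-number read counts per gene and FPKM (counts per gene length and library size). HISAT2, DESeq2 and GRCh38 are named per the submitters' processing notes. Which tool and annotation counted the reads, and with which strand setting, is not given in the sources used here.

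Testing used the deposited counts in edgeR 4.0.16 under R 4.3.3 (TMM, filterByExpr, robust quasi-likelihood test, no covariate), with Benjamini-Hochberg adjustment over 16226 genes and a threshold of 0.05. Adjusted p-values are from this test unless named otherwise. Counts at an unadjusted p below 0.05 are given without the share of all tested genes at that level, which was not counted. An SE is the absolute log2 fold change over the square root of F, and intervals are at 95%. The deposited FPKM were used for levels and in alternative fits. GENCODE v29 gave coordinates, lengths and GC content, and held 97.0% of the gene identifiers. Shared stretches were counted over all GENCODE v29 transcripts.

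The members, role groups and lists were chosen with earlier results of these data known. Named genes are the called factors, the smallest p of each role, the 3 highest and lowest by FPKM, the paralog pairs and, per list, up to 3 called genes or the smallest p; others were chosen after their values were seen. Alternatives were RLE, upper-quartile and unscaled libraries, other filters and thresholds, DESeq2 1.42.0, limma-voom, limma 3.58.1 on log2 FPKM plus 1 or 0.1, a replicate block, GC and length offsets (loess span 0.3) and leaving out each library. The edgeR, DESeq2 and limma-voom fits were tested on simulated data. Splicing and LARP6 binding were not analysed here.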

Additional observations from a re-analysis of the deposited data

How the results depend on the processing

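None of the 7 called factors changed sign in any of the 22 alternatives. Of these, 1 is the main fit at an adjusted p below 0.01, where the sign cannot change. All rest on the same libraries, so they are not independent. Of the 22, EIF3F kept its call in 19, EIF5AL1 in 18, EIF4EBP1 in 15, EIF3G in 14, EIF4A2 in 11, EIF4G2 in 8 and EIF3A in 6. All 7 were lost on the 3 FPKM fits. Against 3 factors higher in the main fit, there were 0 at an adjusted p below 0.01, 1 with upper-quartile factors, 5 without scaling, 1 without a filter, 0 with GC and length offsets, with or without the replicate block, 1 with offsets of the APPRIS principal transcript, where EIF4G2 was called, and 0 with those of the coding sequence. Leaving out 1 library gave 0 to 4. Leaving out control library 2, LARP6 library 1 or LARP6 library 2 each gave 0, control library 3 gave 1 and control library 1 gave 2. Against 4 factors lower, leaving out 1 library gave 3 to 5. On log2 FPKM plus 1, plus 0.1, and plus 1 with a mean of at least 1, 0 factors were higher and 0 lower (6 higher in each and 4, 5 and 4 lower at an unadjusted p below 0.05). The unadjusted counts again have no share of all genes beside them. The median log2 fold change of the factors, -0.019, became 0.0066 without scaling (all genes 0.030 there and 0.0038 in the main fit), 0.0048, 0.0085 and 0.0017 on the FPKM fits (all genes 0.0052, 0.024 and 0.017), -0.034 with coding-sequence offsets and -0.034 to -0.010 when 1 library was left out.

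Over all genes 979 were called (395 higher, 584 lower). The number was 443 at an adjusted p below 0.01, 550 with DESeq2, 3, 23 and 155 on the FPKM fits, 565 with offsets, 600 with the replicate block and offsets, 539 and 649 with principal-transcript and coding-sequence offsets, and 456 to 1040 without 1 library. Without scaling the split was 687 higher and 303 lower. The labels do not say whether replicate numbers pair the libraries. Same-numbered pairs correlated at 0.035, 0.0073 and 0.050, and differently numbered pairs at -0.063 to 0.029. Libraries 1 and 3 of both groups correlated best with their own number, and control library 2 and LARP6 library 2 did not. Correlations this small cannot decide whether the libraries are paired. The replicate block gave 1345 genes, with 4 factors higher (EIF5 added) and 6 lower (EIF3K and EIF5A added).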
